A study of Homo sapiens with 12 samples.

Results

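The genes described here are 9 genes of MHC class I antigen presentation, chosen by symbol from the 19215 genes of the authors' deposited table: the heavy chains HLA-B, HLA-C and HLA-E, the light chain B2M, the peptide transporter subunits TAP1 and TAP2, the loading factor TAPBP, and the immunoproteasome subunits PSMB8 and PSMB9. All 9 had a value in each of the 3 comparisons of that table. The cells were the human chondrocyte line C28/I2, which was immortalised to grow in culture, and its 12 samples fall into 4 groups of 3. The SDF1_SKHS group received 50 nM SDF-1a, the chemokine also called CXCL12, with 1% of the TCM formula SKHS, a traditional herbal mixture. The SDF1_AS4 group received 50 nM SDF-1a together with Astragaloside IV at 10 µM, a plant saponin from Astragalus roots. The SDF1 group received 50 nM SDF-1a, and the DMSO group received 0.5% DMSO. Total RNA was taken after 48 h. The study asked whether natural products that block CXCR4, the receptor of SDF-1a, change what the chemokine does in these cells. DMSO is named for the DMSO group alone, so the chemokine and a difference in solvent cannot be told apart in SDF1 over DMSO, and no vehicle is named for either product.

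Nearly all nucleated cells show samples of their own proteins on MHC class I molecules, which CD8+ T cells inspect. Proteasomes cut proteins into peptides, the TAP1 and TAP2 proteins together carry those peptides into the endoplasmic reticulum, and tapasin, the product of TAPBP, holds an empty class I molecule next to the transporter until a fitting peptide binds. The molecule itself is a polymorphic heavy chain joined to beta-2 microglobulin, the product of B2M. Interferons raise most of these genes together, and in chondrocytes interferon gamma is a known inducer of the MHC.

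The authors' deposited table gives each comparison as a log2 fold change with a p-value and a q-value, and no value per sample, so the members cannot be shown sample by sample and the depth of each sample is unknown. Throughout, a value after ± is a standard error on the log2 scale implied by the deposited p-value, each comparison rests on 3 samples per group, and a gene was called at an adjusted p (the deposited q-value) under 0.05. A 95% interval follows from the same standard error. Nothing in the labels says that the samples of a group were separate cultures, so the p-values speak only to the spread among these samples, which may be technical. The same 3 SDF1 samples stand in all 3 comparisons, so a chance deviation in them moves SDF1 over DMSO and both product comparisons at the same time and in opposite directions. Among 11 chondrocyte markers, SOX9 and ACAN were measured with standard errors between 0.10 and 0.15 in the 3 deposited comparisons, while COL2A1, the collagen that defines cartilage, had a standard error of 1.78 or more. Among 12 leukocyte markers PTPRC, which marks all leukocytes, had a standard error of at least 0.62. With SDF-1a 3 of 10 measured chondrocyte markers fell, led by COL11A2 (-1.70 ± 0.19) and ACAN (-0.88 ± 0.15), while 6 of the 10 had a standard error above 0.3. Of 11 measured leukocyte markers CD3D, a T cell receptor chain, rose (0.61 ± 0.23) and ITGAX, an integrin of myeloid cells, fell (-1.67 ± 0.12). Among all genes 17.5% were called as lower and 17.2% as higher with SDF-1a. With SKHS 3 of 10 chondrocyte markers fell, SOX9 by 0.40 ± 0.10, and ITGAX fell (-0.95 ± 0.12), against 16.7% of all genes called as lower. The part of such shifts in the class I values was not tested. The standard errors of the 9 class I genes lay between 0.06 and 0.16 in the deposited comparisons. All but that of PSMB9 in SDF1_AS4 over SDF1 were below the median over all genes, which was 0.14 to 0.16. The shares of all genes called, given below, also cover less precise genes. A standard error of at most 0.3 was found for 11982 of 18162 genes in SDF1 over DMSO and 12028 of 18251 in SDF1_SKHS over SDF1. A share among genes as precise as these 9 was not computed.

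Of the 9 genes, 8 lie on chromosome 6 in the MHC, over 2825 kb from HLA-E to TAPBP, and B2M lies on chromosome 15 (GENCODE 29, GRCh38). HLA-B occupies 31353872 to 31357187 on the minus strand with 8 exons, and HLA-C 31268749 to 31272086, also with 8 exons, 81.8 kb away. TAP2 (32821833 to 32838727, 12 exons), PSMB8 (32840717 to 32844047), TAP1 (32845209 to 32853978, 11 exons) and PSMB9 (32854161 to 32859585) follow each other within 37.8 kb. TAP1 and PSMB9 are transcribed away from each other, from starts 183 bases apart in GENCODE. RefSeq promoter windows (GRCh38.p14, from 250 bases before a gene start to 50 after) were matched for 8 of the 9 genes. RefSeq starts can differ from those of GENCODE. The TAP1 window printed below, 32853655 to 32853954, lies wholly within the GENCODE span of TAP1 given above. The windows were searched on both strands for the core of the interferon-stimulated response element (ISRE), which reads GAAA, any 2 bases and GAAA again, and for an NF-kappaB-like site, which reads GGGA, any 4 bases and CC. The ISRE core was in a window of 5 members (TAP1, TAP2, TAPBP, PSMB8 and B2M), and in 3.6% of all 35116 promoter windows. A gene can have several windows, so the matching share of genes, over 14795 genes of the table with a window, was higher, at 4.2%. The kappaB-like letters were in a window of 5 members, in 25.6% of all windows and in 35.6% of genes. The windows of the 2 genes of peptide transport, which moved most with SDF-1a, and of HLA-B are printed whole, 5′ to 3′ along the gene, with the matches in capitals. For HLA-B, which has no ISRE core match, the capitals mark the kappaB-like site and a shorter form of the ISRE, GAANNGAAA or TTTCNNTTC in reverse, which is in 7.7% of all windows and 8.7% of genes.
TAP1 (chr6:32853655-32853954, minus strand): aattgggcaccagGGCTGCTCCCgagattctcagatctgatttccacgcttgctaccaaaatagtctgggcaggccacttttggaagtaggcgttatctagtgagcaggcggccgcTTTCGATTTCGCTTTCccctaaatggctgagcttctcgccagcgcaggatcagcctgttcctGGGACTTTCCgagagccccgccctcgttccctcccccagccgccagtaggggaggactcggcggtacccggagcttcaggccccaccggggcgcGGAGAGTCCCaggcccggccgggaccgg
TAP2 (chr6:32838690-32838989, minus strand): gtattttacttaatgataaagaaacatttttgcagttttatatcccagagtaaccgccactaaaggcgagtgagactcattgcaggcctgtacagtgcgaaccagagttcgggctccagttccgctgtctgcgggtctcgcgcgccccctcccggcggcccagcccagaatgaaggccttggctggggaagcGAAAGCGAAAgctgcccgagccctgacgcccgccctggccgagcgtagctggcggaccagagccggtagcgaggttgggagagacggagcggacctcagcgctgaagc
HLA-B (chr6:31357130-31357429, minus strand): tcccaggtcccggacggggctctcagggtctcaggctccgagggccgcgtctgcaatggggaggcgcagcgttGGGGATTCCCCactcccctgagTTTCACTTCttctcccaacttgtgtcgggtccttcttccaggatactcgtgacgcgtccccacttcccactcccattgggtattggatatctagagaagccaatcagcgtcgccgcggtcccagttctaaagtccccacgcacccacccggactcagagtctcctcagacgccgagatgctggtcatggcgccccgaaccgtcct

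Positions here count from the RefSeq start of each window. In TAP1 the ISRE core was matched at overlapping places, at positions -134 to -119. In TAP2 it was matched at positions -58 to -49, overlapping the shorter form. The ISRE matches of the other members are shown as stretches of 41 bases, with the shorter form in capitals for HLA-C.
TAPBP (chr6:33314073-33314113, minus strand): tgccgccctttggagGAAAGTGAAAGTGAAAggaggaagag
B2M (chr15:44711358-44711398, plus strand): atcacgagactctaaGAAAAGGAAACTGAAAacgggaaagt
PSMB8 (chr6:32844026-32844066, minus strand): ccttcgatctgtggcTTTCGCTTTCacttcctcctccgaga
HLA-C (chr6:31272219-31272259, minus strand): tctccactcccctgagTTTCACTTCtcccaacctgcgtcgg

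The promoters of HLA-B and HLA-C were 90.9% identical over 296 aligned bases, and both carried the shorter ISRE beside the kappaB-like letters. The PSMB9 window, which overlaps that of TAP1 by 13 bases, held neither ISRE form and no kappaB-like match. Matches to TTCNNNGAA, the letters of a gamma interferon activation site, were in windows of 2 members (7.7% of all windows and 8.9% of genes). TGACG was in windows of 6 members (24.6% of windows, 35.5% of genes) and CCAAT, searched as ATTGG too, in 5 (34.6% of windows, 42.4% of genes). These matches describe letters in the reference genome and were not measured as bound sites.

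**Figure D1:**
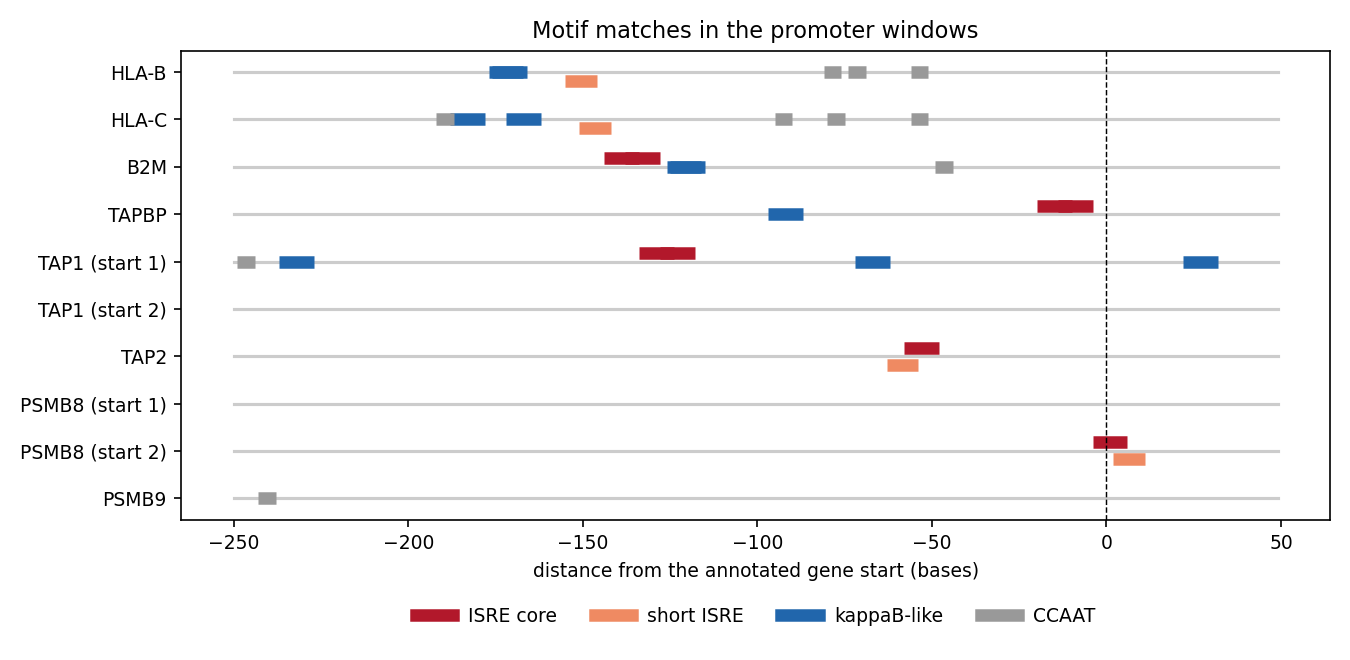
Positions of motif matches in the promoter windows of 8 members, in bases from the annotated gene start (dashed line); TAP1 and PSMB8 have a window at each of 2 annotated starts. ISRE core matches (red) appear in TAPBP, B2M, TAP1, TAP2 and PSMB8, the shorter ISRE (orange) in HLA-B, HLA-C, TAP2 and PSMB8, and kappaB-like (blue) and CCAAT (grey) matches as coloured.

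With SDF-1a, 6 of the 9 genes fell relative to DMSO and none rose, with a median log2 fold change of -0.32. The peptide transporter fell most, the heavy chains fell by smaller and like amounts, and the immunoproteasome subunits and the light chain did not pass the threshold. In the same comparison 34.7% of 18162 tested genes were called, 17.5% as lower and 17.2% as higher, and the median over all genes was -0.01.

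TAP2, the transporter subunit encoded next to PSMB8, had a log2 fold change of -0.91 ± 0.09 in the authors' deposited table, 1.88-fold lower with SDF-1a, with a 95% interval from -1.09 to -0.74 (adjusted p = 1.53e-22). Only 13.9% of tested genes had a lower log2 fold change. TAP2 shares 80.5% of its exon bases with another annotated gene on the same strand, so its values may hold reads of both. TAP1, its partner in the heterodimer, was at -0.67 ± 0.11 (1.59-fold lower, adjusted p = 4.72e-08), with an interval from -0.89 to -0.45. TAP2 and TAP1 had the lowest values of the 9, although the interval of TAP1 overlaps those of the heavy chains. TAPBP fell by 0.32 ± 0.10 (adjusted p = 0.00418). That call was lost once a fitted trend over transcript length and base composition (GC) was subtracted, which left TAPBP at -0.14 (adjusted p = 0.287).

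Among the heavy chains, HLA-E, which presents leader peptides of other class I chains to natural killer cells, was at -0.37 ± 0.08 (adjusted p = 4.61e-05) in the authors' deposited table. HLA-B was at -0.34 ± 0.08 (adjusted p = 0.000111) and HLA-C at -0.31 ± 0.10 (adjusted p = 0.00543). The intervals of these 3 genes overlap almost fully, from -0.53 to -0.21 for HLA-E, from -0.50 to -0.19 for HLA-B and from -0.51 to -0.12 for HLA-C, so no order among them can be read. HLA-B and HLA-C share 92.5% of their aligned coding bases, and 2.0% of the 50-base words of the HLA-B reference transcript occur unchanged in that of HLA-C. The processing notes list RSEM, but how many reads were divided between such genes is not given in the sources used here. How far the alleles of this cell line differ from the reference is not given either.

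B2M, the light chain common to all these molecules, was at -0.08 ± 0.07 (adjusted p = 0.399), with an interval from -0.21 to 0.05. After subtraction of the length and GC trend it was at -0.20 and called (adjusted p = 0.00983). The annotated principal transcript of B2M has a GC content of 39.4%, against 54.8% to 60.2% for those of the other 8 members. The trend itself used the longest protein-coding transcript of each gene, which may be a different one. PSMB8 and PSMB9 encode catalytic subunits that replace constitutive ones in the immunoproteasome. PSMB8 stood at -0.02 ± 0.11 (adjusted p = 0.929) and PSMB9 at -0.03 ± 0.15 (adjusted p = 0.926). Their intervals, from -0.25 to 0.20 for PSMB8 and from -0.32 to 0.26 for PSMB9, both include 0, and that of PSMB8 does not reach the values of the heavy chains. When the deposited statistics were read on a t distribution with 4 degrees of freedom, TAP2 alone of the 9 was called.

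**Figure D2:**
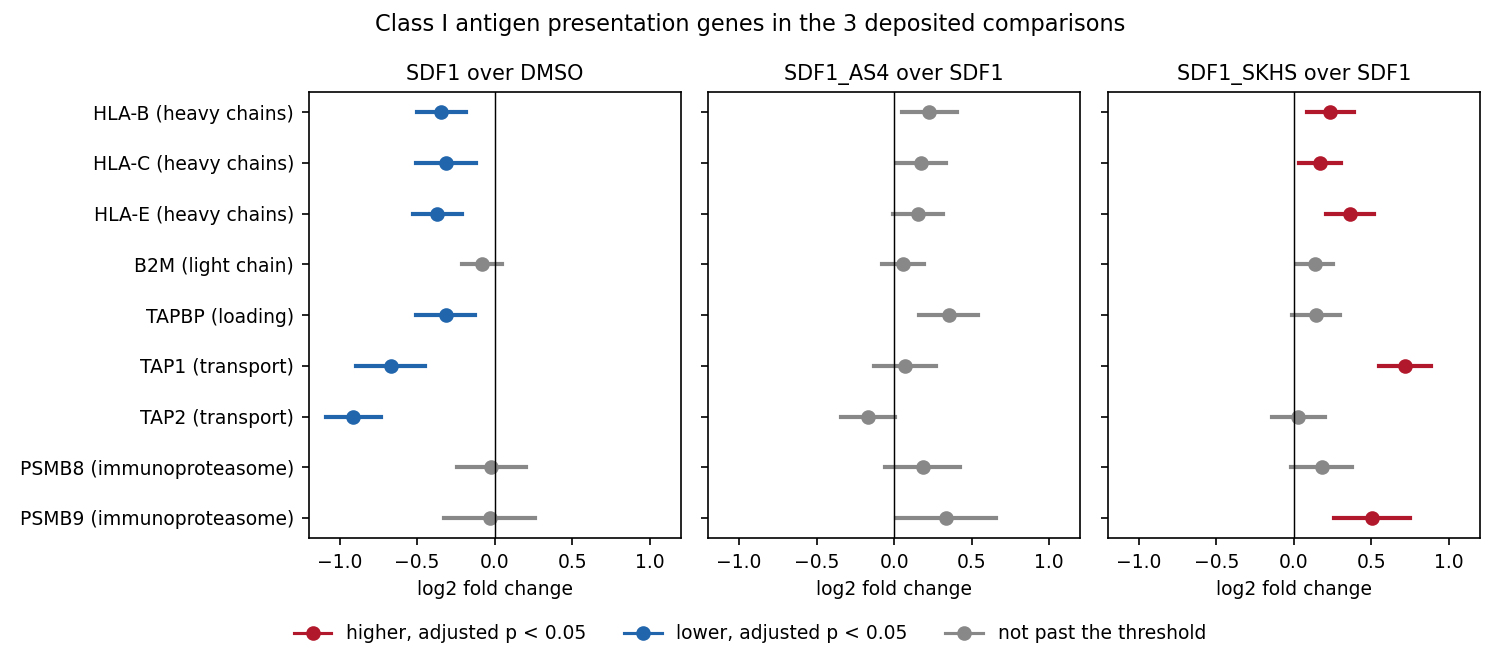
Log2 fold changes (points) with 95% intervals (lines) of the 9 genes in the 3 deposited comparisons, 3 samples per group. With SDF-1a the 6 blue genes lie to the left of 0, from -0.91 to -0.31; with SKHS added the 5 red genes lie to the right, from 0.17 to 0.72; with Astragaloside IV added no gene passed the threshold.

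With SKHS added to SDF-1a, 5 of the 9 genes rose relative to SDF1 and none fell, with a median log2 fold change of 0.18. The called genes were TAP1 and PSMB9, whose GENCODE starts lie 183 bases apart on opposite strands, and the heavy chains HLA-E, HLA-B and HLA-C. TAP1 and PSMB9 had the highest values, although the interval of PSMB9 overlaps those of the heavy chains. Over all genes 32.4% of 18251 were called, 15.8% as higher and 16.7% as lower, and the median was 0.00.

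TAP1 rose by 0.72 ± 0.09 in the authors' deposited table, 1.64-fold higher with SKHS (adjusted p = 4.61e-15), with an interval from 0.55 to 0.89. PSMB9 rose by 0.50 ± 0.13 (1.42-fold, adjusted p = 0.000351), with an interval from 0.26 to 0.75. TAP2 was at 0.03 ± 0.09 (adjusted p = 0.89), and its interval, from -0.14 to 0.20, does not reach that of TAP1. PSMB8 was at 0.18 ± 0.10 (adjusted p = 0.182). TAP1 and PSMB9 were therefore called while their neighbours and partners TAP2 and PSMB8 were not, although the difference between the genes was not tested.

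HLA-E rose by 0.36 ± 0.08 with SKHS (1.28-fold, adjusted p = 3.34e-05) in the authors' deposited table. HLA-B rose by 0.24 ± 0.08 (adjusted p = 0.00838) and HLA-C by 0.17 ± 0.07 (adjusted p = 0.047). The call of HLA-C was lost when values were centred on the median of precisely measured genes (adjusted p = 0.0594) and after subtraction of the length and GC trend (adjusted p = 0.147). B2M stood at 0.14 ± 0.06 (adjusted p = 0.0542), just outside the threshold, and passed it after that subtraction (0.16, adjusted p = 0.0225). TAPBP was at 0.15 ± 0.08 (adjusted p = 0.162). On a t distribution with 4 degrees of freedom TAP1 alone of the 9 was called.

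With Astragaloside IV added to SDF-1a, none of the 9 genes passed the threshold in the authors' deposited DESeq2 comparison, in which 0.358% of 18133 genes were called. At an unadjusted p under 0.05 there were 4 of the 9, HLA-B, HLA-C, TAPBP and PSMB9, all above 0, against 2970 of all genes (16.4%). TAPBP came closest, at 0.35 ± 0.10 (1.28-fold, adjusted p = 0.0537), and reached an adjusted p of 0.0408 when only genes with a standard error of at most 0.5 were tested. PSMB9 was at 0.34 ± 0.16 (adjusted p = 0.278), HLA-B at 0.23 ± 0.09 (adjusted p = 0.165) and HLA-C at 0.17 ± 0.08 (adjusted p = 0.249). PSMB8 stood at 0.18 ± 0.12, HLA-E at 0.16 ± 0.08, TAP1 at 0.07 ± 0.10, B2M at 0.06 ± 0.07 and TAP2, the single value below 0, at -0.17 ± 0.09. The median of the 9 was 0.17, against 0.01 over all genes, and fell to 0.03 after subtraction of the length and GC trend, where HLA-C was at -0.04. The heavy chain intervals ran from 0.05 to 0.40 for HLA-B, from 0.02 to 0.33 for HLA-C and from -0.01 to 0.32 for HLA-E. Values above 0 were not particular to the class I genes in this comparison. All 14 constitutive 20S proteasome subunits (median 0.15) and 34 of 37 non-antigen genes of the MHC region (median 0.09) were above 0. Of 10 genes of peptide loading and trimming, 4 were above 0 and 6 below (median -0.14).

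Each group was also set against DMSO, for the products by adding the deposited log2 fold changes over SDF1 and of SDF1 over DMSO, with a standard error that is an upper bound. TAP2 was the lowest member in every group. It was at -0.88 ± 0.13 in SDF1_SKHS over DMSO (adjusted p = 3.02e-11), at -1.08 ± 0.13 in SDF1_AS4 over DMSO (2.11-fold lower, adjusted p = 3.16e-15) and, as deposited, at -0.91 in SDF1 over DMSO. TAP1 differed by group, at 0.05 ± 0.14 in SDF1_SKHS over DMSO (adjusted p = 0.891) and at -0.60 ± 0.15 in SDF1_AS4 over DMSO (adjusted p = 0.000818). PSMB9 was above DMSO in SDF1_SKHS, at 0.47 ± 0.19 (adjusted p = 0.043), and at 0.30 ± 0.22 in SDF1_AS4 (adjusted p = 0.401). In all, 2 members were called in SDF1_SKHS over DMSO (TAP2 lower, PSMB9 higher), where 37.2% of 17936 genes were called, and 2 in SDF1_AS4 over DMSO (TAP1 and TAP2 lower), where 22.4% of 17895 were called.

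The heavy chains did not pass the threshold against DMSO in either product group. HLA-E was at -0.01 ± 0.11 in SDF1_SKHS, with an interval from -0.23 to 0.22, and at -0.21 ± 0.12 in SDF1_AS4 (adjusted p = 0.201). HLA-B was at -0.11 ± 0.11 in SDF1_SKHS and -0.12 ± 0.12 in SDF1_AS4, and HLA-C at -0.15 ± 0.12 and -0.14 ± 0.13 in the same groups. All these intervals include 0. Those of HLA-C ran from -0.38 to 0.09 in SDF1_SKHS and from -0.39 to 0.11 in SDF1_AS4. Those of HLA-B ran from -0.32 to 0.11 in SDF1_SKHS and from -0.35 to 0.12 in SDF1_AS4. Each sum contains the SDF1 over DMSO value, so these intervals cannot show whether a product group differed from SDF1. The deposited comparisons over SDF1, given above, test that directly.

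**Figure D3:**
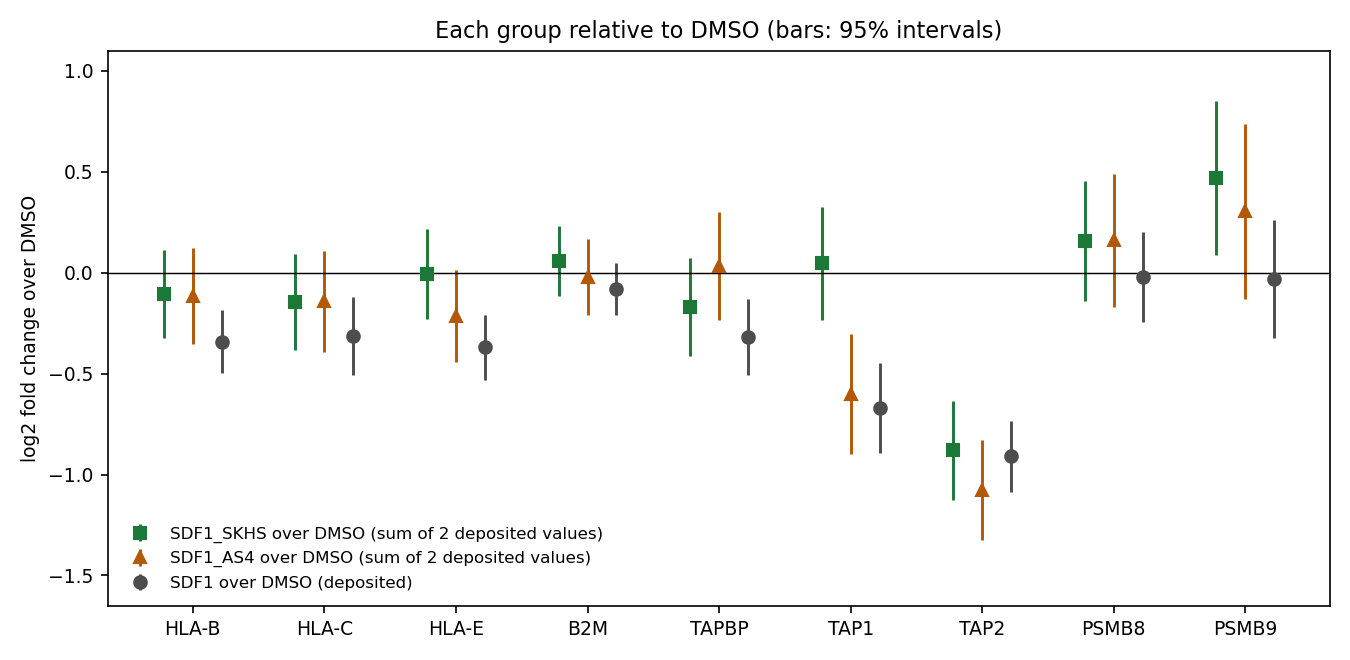
Log2 fold change of each of the 9 genes over DMSO (0 line) in SDF1_SKHS (green squares), SDF1_AS4 (orange triangles) and SDF1 (grey circles), with 95% intervals; product values are sums of 2 deposited values. TAP2 lies near -1 in all groups, while TAP1 lies near 0 in SDF1_SKHS and below -0.5 in the other groups.

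The difference between the products was tested directly on the difference of their deposited log2 fold changes over SDF1. Of the 9 genes only TAP1 was called, 0.65 ± 0.13 higher in SDF1_SKHS than in SDF1_AS4 (1.57-fold, adjusted p = 2.44e-05), in a comparison with 18.9% of 17927 genes called. HLA-E was 0.21 ± 0.11 higher in SDF1_SKHS (adjusted p = 0.236), with an interval from -0.02 to 0.43. TAPBP was at -0.21 ± 0.13 (adjusted p = 0.305), the lowest value of the 9, with an interval from -0.45 to 0.04. For HLA-B the difference was 0.01 ± 0.12, with an interval from -0.22 to 0.24, and for HLA-C -0.00 ± 0.11, from -0.21 to 0.21, so the products may differ in these genes by no more than about those sizes.

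**Figure D4:**
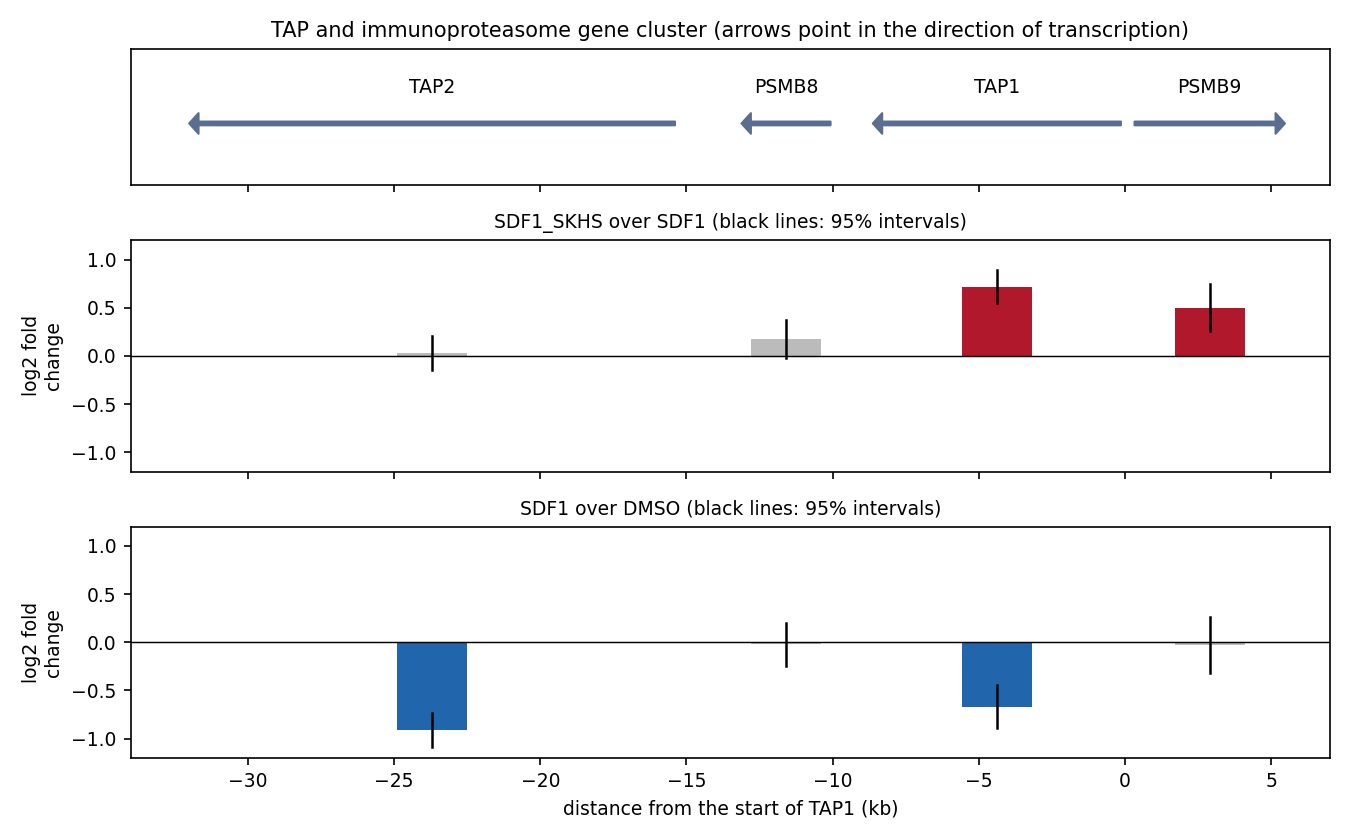
The gene cluster of TAP2, PSMB8, TAP1 and PSMB9 drawn to scale in kb from the start of TAP1 (top), with each gene's log2 fold change (bars) and 95% interval (black lines) in SDF1_SKHS over SDF1 (middle) and SDF1 over DMSO (bottom). TAP2 and TAP1 fell with SDF-1a, at -0.91 and -0.67, and TAP1 and PSMB9 rose with SKHS, at 0.72 and 0.50.

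PSMB8 lies between TAP2 and TAP1 and was called in neither comparison, with values of -0.02 with SDF-1a and 0.18 with SKHS. Annotated overlap limits some of these values. TAP2 shares 80.5% of its exon bases with a read-through gene on the same strand, AL669918.1, and TAP1 shares 15.4% of its exon bases with the antisense RNA gene PSMB8-AS1. HLA-B shares 24.0% with a pseudogene on the opposite strand, AL671883.2, and HLA-C shares 2.1% with exons annotated to HLA-B on the same strand. Overlap was counted against every annotated transcript of the other gene, and these HLA-B exons lie outside the HLA-B span given above. Whether the counting used strand is not given in the sources used here, so reads of TAP1 and HLA-B cannot be told apart from those of the genes opposite them. For TAP2 and AL669918.1 strand cannot separate reads of the shared bases in either case, so the TAP2 values may hold reads of both. Of 37 other genes of the MHC region without a role in antigen presentation, 10 fell and 5 rose with SDF-1a (median -0.01). With SKHS 8 of them rose and 10 fell (median 0.02). Among all genes 17.5% were called as lower and 17.2% as higher with SDF-1a, and 15.8% as higher and 16.7% as lower with SKHS. VARS2, a mitochondrial valyl-tRNA synthetase (-0.98 ± 0.11), and DDX39B, an RNA helicase (-0.61 ± 0.08), were the falls of smallest p with SDF-1a. NELFE, a subunit of a transcription elongation factor (0.43 ± 0.09), and the ribosomal protein gene RPS18 (0.42 ± 0.09) were such rises.

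The rest of the class I pathway was described from lists of genes. HLA-F, a heavy chain found mostly inside cells, fell with SDF-1a by 0.77 ± 0.11 (adjusted p = 5.08e-11), while HLA-G was too imprecise to show a change (-0.14 ± 1.06). HLA-F rose with SKHS by 0.34 ± 0.11 (adjusted p = 0.00513). Relative to DMSO, HLA-F in SDF1_SKHS was at -0.42 ± 0.15 (adjusted p = 0.0171) and was called as lower, whereas HLA-B, HLA-C and HLA-E were not called in that group.

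Of 10 genes of peptide loading and trimming, 7 fell and 1 rose with SDF-1a, with a median of -0.33. The shares over all genes were 17.5% lower and 17.2% higher. CALR, the lectin chaperone calreticulin of the loading complex, fell by 0.72 ± 0.08 (adjusted p = 1.6e-19) and PDIA3, the oxidoreductase that pairs with tapasin, by 0.46 ± 0.07 (adjusted p = 2.33e-11). The single rise was that of the protease NRDC (0.21 ± 0.07, adjusted p = 0.0144). With SKHS 5 of the 10 fell and 1 rose (median -0.20), against 16.7% of all genes called as lower and 15.8% as higher. LNPEP, an aminopeptidase of cross-presentation (-0.84 ± 0.11), and UGGT1, which checks the folding of glycoproteins (-0.65 ± 0.09), led the falls. The rise was that of TAPBPL, a relative of tapasin that edits peptides (0.67 ± 0.11, adjusted p = 3.25e-08). TAPBPL had fallen with SDF-1a, at -0.46 ± 0.14.

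Of 14 constitutive 20S subunits, 11 rose and none fell with SDF-1a (median 0.32), led by PSMA4 (0.48 ± 0.08) and PSMA5 (0.49 ± 0.09). Over all genes the shares were 17.2% higher and 17.5% lower with SDF-1a, and 15.8% higher and 16.7% lower with SKHS. With SKHS 1 of the 14 rose, PSMB6 (0.33 ± 0.08), the constitutive counterpart of PSMB9, and 2 fell, PSMB1 (-0.26 ± 0.08) and PSMB2 (-0.17 ± 0.07), with a median of -0.01. PSMB10, the remaining immunoproteasome subunit, was at 0.17 ± 0.13 with SDF-1a (adjusted p = 0.337) and rose by 0.27 ± 0.11 with SKHS (adjusted p = 0.0444). The PA28 activator genes PSME1 and PSME2 rose with SKHS by 0.27 ± 0.07 and 0.29 ± 0.07, and PSME3, a nuclear relative, by 0.45 ± 0.07. With SDF-1a PSME1 rose (0.31 ± 0.08), PSME3 rose (0.41 ± 0.08) and PSME2 stood at 0.04 ± 0.08.

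Among 26 regulators of interferon signalling and class I transcription, 8 fell and 7 rose with SDF-1a (median 0.07). With SKHS 6 rose and 6 fell (median 0.09). The shares over all genes were 17.5% lower and 17.2% higher with SDF-1a, and 15.8% higher and 16.7% lower with SKHS. STAT2, a subunit of the factor that binds the ISRE, fell by 1.11 ± 0.10 with SDF-1a (adjusted p = 3.76e-29). NLRC5, the transactivator that assembles on class I promoters, fell by 0.96 ± 0.11 (1.94-fold, adjusted p = 5.73e-18). JAK1, a kinase of cytokine receptors (0.50 ± 0.07), and NFKB1 (0.69 ± 0.11) were the rises of smallest p. With SKHS, RFXAP, a subunit of the factor that binds the X box of MHC promoters (0.78 ± 0.14), and USP18, an interferon-induced brake on interferon signalling (0.62 ± 0.14), rose. TYK2, a kinase of interferon receptors (-0.68 ± 0.09), and the receptor chain IFNAR2 (-0.50 ± 0.12) fell. Chosen after their values were seen, NLRC5 rose by 0.38 ± 0.09 with SKHS (adjusted p = 0.00035) and so did IRF1, an activator of class I genes, by 0.41 ± 0.11 (adjusted p = 0.000712), while STAT2 was at 0.07 ± 0.08 (adjusted p = 0.61). With Astragaloside IV NLRC5 was at -0.08 ± 0.11 (adjusted p = 0.885).

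**Figure D5:**
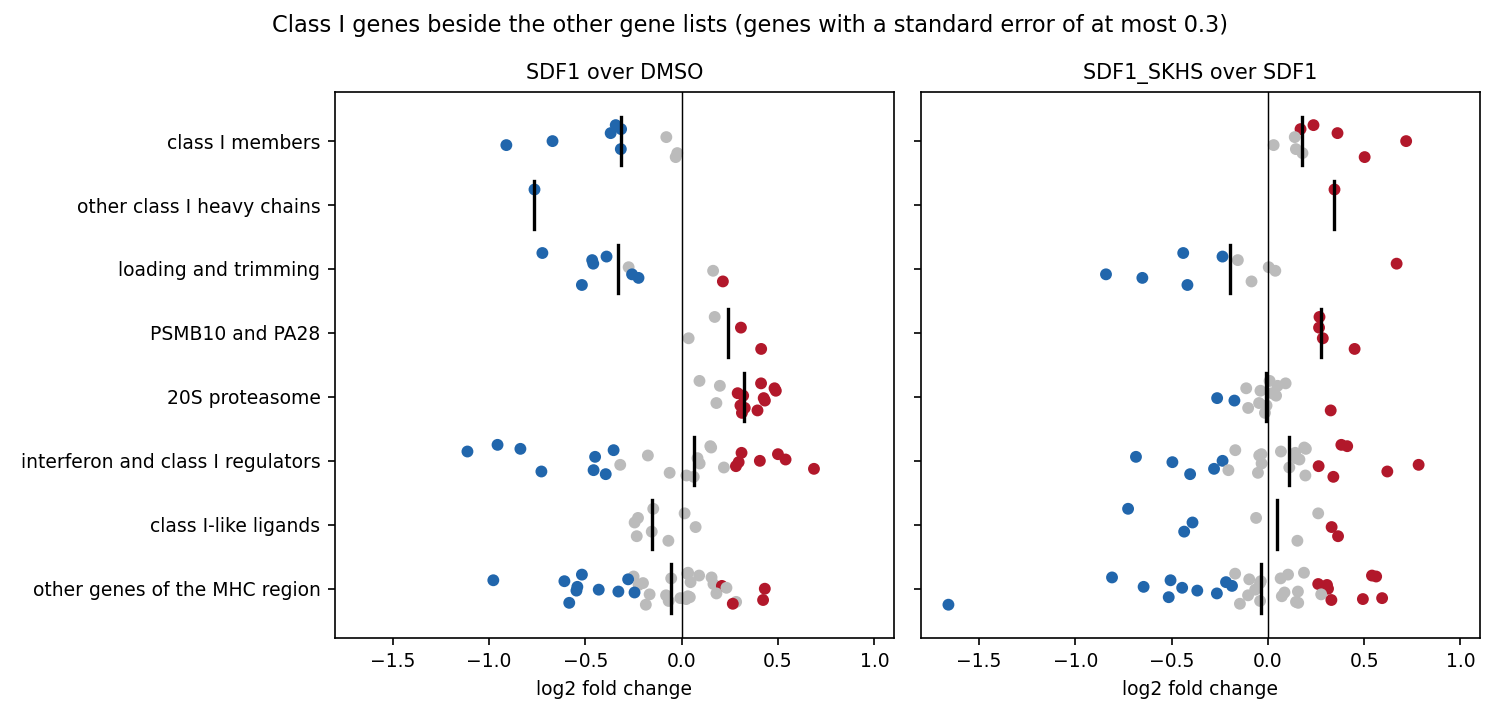
Log2 fold changes of the 9 class I genes (top row) and of 7 other gene lists in SDF1 over DMSO (left) and SDF1_SKHS over SDF1 (right); each point is a gene with a standard error of at most 0.3, red or blue where called, and black lines are medians of the points. With SDF-1a the class I and loading lists lie mostly left of 0 and the 20S proteasome list right of it.

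Likeness in pattern was measured as the Euclidean distance, over the 3 deposited log2 fold changes, to the median of the 9 genes (-0.32, 0.17 and 0.18), among 11768 genes with a standard error of at most 0.3 in all 3. The nearest were LIAS, which makes lipoic acid (distance 0.024), the transcription factor gene TFAP2A (0.038), PCGF1, a Polycomb subunit (0.059), TUFM, a mitochondrial elongation factor (0.059), and GPR108 (0.063). LIAS, for example, was at -0.31 in SDF1 over DMSO, 0.19 in SDF1_AS4 over SDF1 and 0.17 in SDF1_SKHS over SDF1.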

How the data were processed

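RNA-seq of 12 C28/I2 samples was analysed from the authors' deposited table of 3 comparisons. The submitters' processing notes list Bowtie2 2.2.5, RSEM 1.2.12, DESeq2 1.4.5 and the build GRCh38.p13, without an order of steps, and per the file headers the p-values and q-values come from DESeq2. In the log2 fold changes deposited by the authors the group named second was taken as the numerator. This was checked on values of genes that lack a value in another comparison, and 1576 of 1576 such values had the sign it requires. A gene was counted for each pair of a comparison with a value and 1 without. Deposited q-values matched Benjamini-Hochberg values recomputed over all genes (largest difference 1.29e-14).

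Standard errors were back-calculated by dividing each absolute log2 fold change by the normal deviate of its p-value, on the assumption of a Wald test. Comparisons of product groups with DMSO and with each other were computed as sums or differences of deposited values, with both variances added (an upper bound, since the SDF1 samples are shared), a normal test and Benjamini-Hochberg adjustment over all genes, and were tested on simulated data. Genes with a standard error of at most 0.3 are called precisely measured. As an alternative, a trend over transcript length and GC content was fitted and subtracted, using GENCODE 29, in which 95.8% of symbols were found; other alternatives were a stricter threshold, a t distribution, a filter on standard errors, centring and a smaller shared variance. Promoter windows came from RefSeq (GRCh38.p14). Computation used numpy 2.4.6, scipy 1.17.1 and pandas 2.3.3 under Python 3.11.15, and Biopython 1.88 for alignments. The members and lists were chosen with earlier results of these data known. All 9 members were described, and of each list at most the 2 called genes of smallest p per direction were named, or all genes of lists with 4 or fewer. Pattern neighbours were the 5 genes nearest to the members' median. TAPBPL, NLRC5, IRF1 and STAT2 were named outside that rule in some comparisons. A gene of the pathway is not reported here.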

Additional observations from a re-analysis of the deposited data

Results flagged for a closer look

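TAP1 was singled out because the effects of the products on it, each over SDF1, differed by a test of the difference itself. Its log2 fold change was 0.72 ± 0.09 in SDF1_SKHS over SDF1 and 0.07 ± 0.10 in SDF1_AS4 over SDF1, a difference of 0.65 with an adjusted p of 2.44e-05 over 17927 genes. The other 8 members gave no such difference at this threshold.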

How the results depend on the processing

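No paired analysis was possible because the table gives comparisons and no value per sample, and for the same reason no sample could be left out in turn. Reading the deposited statistics on a t distribution with 4 degrees of freedom, whose heavier tails can only lower the counts, left 1092 genes and 1 member (lower) for SDF1 over DMSO, 1350 genes and 1 member (higher) for SDF1_SKHS over SDF1 and 0 genes for SDF1_AS4 over SDF1. For SDF1_AS4 over SDF1 the count of called genes was 65 as deposited, 7 at an adjusted p of 0.01, 190 (with 1 member, TAPBP, higher) when the test was limited to standard errors up to 0.5, and 28 after subtraction of the length and GC trend. At an adjusted p of 0.01, 1 member was called in SDF1_SKHS over DMSO. With an assumed SDF1 part of the variance removed, 2 members (TAP1 and HLA-E) were called in SDF1_SKHS over SDF1_AS4. Under that setting HLA-E was also called as lower in SDF1_AS4 over DMSO (adjusted p = 0.0395). The shares of all genes called under these settings were not computed for these comparisons, so the member counts cannot be set against them. The limit on standard errors also brought B2M past the threshold in SDF1_SKHS over SDF1 (adjusted p = 0.0402). No called member changed sign under any of these settings. The cause of these shifts was not tested.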

Other observations

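The class I-like list holds ligands of the natural killer cell receptor NKG2D (MICA, MICB and the ULBP genes) and molecules of class I fold with other roles, such as FCGRT, HFE, MR1, CD1D and PROCR. With SDF-1a 0 of its 10 genes were called in DESeq2's deposited test and 0 at an unadjusted p under 0.05. Over all genes these shares were 34.7% and 41.0%. With SKHS 3 of the 10 fell and 2 rose, against 16.7% of all genes called as lower and 15.8% as higher. MICA, a ligand of the receptor NKG2D encoded in the MHC near HLA-B, fell by 0.73 ± 0.09 (1.65-fold, adjusted p = 4.74e-15), and ULBP3, another such ligand, by 0.39 ± 0.14 (adjusted p = 0.0168). FCGRT, the heavy chain of the neonatal Fc receptor, which also pairs with beta-2 microglobulin, rose by 0.36 ± 0.11 (adjusted p = 0.00389), and MR1, which presents vitamin metabolites to T cells, by 0.33 ± 0.11 (adjusted p = 0.00886). MICA and HLA-B thus moved in opposite directions with SKHS.

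Genes of MHC class II were mostly imprecise, and 8 of 12 had a standard error above 0.3 in SDF1 over DMSO. CIITA, the class II transactivator, fell with SDF-1a by 1.27 ± 0.28 (adjusted p = 3.39e-05), and the protease gene CTSS fell with SKHS by 0.46 ± 0.14 (adjusted p = 0.0033). Of 8 interferon genes, 4 had a value in SDF1 over DMSO, where IFNE, an epithelial type I interferon, fell by 1.15 ± 0.32 (adjusted p = 0.00144).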
